A study of Saccharomyces cerevisiae with 30 samples.

Results

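SUC2 is the yeast gene for invertase, the enzyme that splits sucrose into glucose and fructose. It was followed here as the row named SUC2 in each of 2 deposited expression tables, so it is 1 gene of the 6101 that each table lists. RNA was sequenced from 30 libraries of Saccharomyces cerevisiae in 10 groups of 3. All strains were in the BY4741 background, a laboratory haploid of mating type a, and all were grown in YPD (1% yeast extract, 2% peptone, 2% glucose) at 28 °C to an OD600 of 0.7 and then kept for 30 min in YP medium with 2% glucose or with 2% sucrose. The glucose groups therefore also went through a transfer of medium. The Ada3 set has 12 libraries, of wild type (WT) in glucose, WT in sucrose, Ada3-3KR in glucose and Ada3-3KR in sucrose, where Ada3-3KR is an acetylation mutant of Ada3. The bromodomain set has 18 libraries, of its own WT, of Gcn5m (a mutant of the Gcn5 bromodomain) and of Spt7m (a mutant of the Spt7 bromodomain), each in glucose and in sucrose. Ada3, Gcn5 and Spt7 are subunits of SAGA, the coactivator complex through which Gcn5 acetylates histones. The labels give neither the number of clones behind a mutant nor the origin of its replicates, and if these are not separate cultures the p-values reflect technical spread alone. For 1 gene alone, an exact two-sided test of 3 libraries against 3 cannot go below 0.1, so all tests are limma fits across all genes.

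Invertase is made in a secreted form, which carries a signal peptide and works outside the plasma membrane, and in an internal form, both from the same gene. The transcript of the secreted form is repressed while glucose is plentiful. In textbook accounts the repressor Mig1 sits at GC-rich sites upstream of SUC2 and recruits the corepressor Tup1-Cyc8, and when glucose runs low the kinase Snf1 phosphorylates Mig1, which leaves the nucleus. Opening the promoter then involves the remodeller SWI/SNF and coactivators such as SAGA. The gene values used here add up both forms of the transcript.

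SUC2 (YIL162W) lies on the plus strand of chromosome IX at IX:37385-38983 in build R64, with 1599 bases and no overlapping annotated gene. No other place in the genome matched it at 90% identity over 50% of its length, so its reads are not shared with a near-identical copy. The 300 bases that begin 700 bases before the start codon (IX:36685-36984, plus strand, RefSeq R64) are shown because 3 Mig1-type hexamers of the promoter fall in them, and these are in capitals.
SUC2 upstream: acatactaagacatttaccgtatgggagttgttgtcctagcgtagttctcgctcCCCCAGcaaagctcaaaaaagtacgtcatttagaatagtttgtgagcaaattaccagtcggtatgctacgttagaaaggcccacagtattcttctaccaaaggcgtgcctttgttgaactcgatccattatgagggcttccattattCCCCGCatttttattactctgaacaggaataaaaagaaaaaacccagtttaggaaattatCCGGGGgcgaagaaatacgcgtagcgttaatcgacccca
The hexamers, searched on both strands, are a short form of the GC box that Mig1 is known to bind. On the plus strand CCGGGG was found at 439 to 434 bases before the start codon. On the minus strand CTGGGG was found at 646 to 641, GCGGGG at 499 to 494 and GTGGGG at 405 to 400, the last of which runs 1 base past the stretch. Of 5999 genes with such an upstream stretch, 17.7% held at least 1 of these hexamers and 0.3% held at least 3. The stretch was picked for its matches in SUC2, so the 0.3% does not measure how unusual SUC2 is. Over the 1000 bases before the start codon SUC2 had 4 matches, and 0.834% of 5996 genes had at least as many. The 3′ end of the stretch lies inside the annotated gene YIL163C (IX:36899-37252, minus strand). Nearer to the start codon, in the 100 bases that begin 200 bases before it (IX:37185-37284, plus strand), stands the TATAAA in capitals below.
SUC2 proximal: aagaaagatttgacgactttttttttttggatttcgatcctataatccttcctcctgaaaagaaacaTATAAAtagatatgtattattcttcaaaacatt
This hexamer, TATAAA, was found on the plus strand at 133 to 128 and at 348 to 343 bases before the start codon, and 43.4% of 6001 genes had at least 1 in their last 250 bases. These matches describe letters and are not evidence of binding.

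Values are deposited FPKM (fragments per kilobase of gene, scaled to the depth of the library), and the counts behind them were not analysed here, so depth is unknown. FPKM summed to between 1152780 and 1288949 per library, 22 to 33 genes were listed at 0, and the correlation across genes between libraries of the same group was 0.9937 to 0.9981. From row 4148 on, each gene's deposited values carry a constant factor, its own length over another length. For SUC2, in row 4457, the factor is 533/290, or 1.84, in both tables. A change within 1 gene is not altered by it apart from the pseudocount, but a level set against other genes is, so such statements use FPKM with the factor undone and say so. The 6 MATa genes summed to between 5426 and 10804 FPKM and the 4 MATalpha genes to between 25.8 and 44.7. Of the 4 auxotrophy genes, LEU2 (at most 0.136) and MET17 (0) were at or near 0, and HIS3 was detected in every library. URA3, the gene for a uracil synthesis enzyme, was below 2.5 FPKM in WT and Ada3-3KR, at 223 to 444 in Gcn5m and at 7079 to 11463 in Spt7m (deposited values). It moved with the strains of the bromodomain set. Its part in their SUC2 values was not tested and cannot be told apart from that of the mutations.

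SUC2 was strongly induced in sucrose in both WT strains. Its deposited FPKM in replicates 1, 2 and 3 of WT of the Ada3 set were 136, 137 and 124 in glucose and 1134, 1089 and 1062 in sucrose. The means were 132 ± 7.50 and 1095 ± 36.6 (SD, n = 3), a ratio of 8.28. In WT of the bromodomain set the values were 63.0, 69.0 and 62.4 in glucose and 908, 880 and 868 in sucrose. These means were 64.8 ± 3.61 and 886 ± 20.4 (SD, n = 3), a ratio of 13.7. In both sets every sucrose library was far above every glucose library. On the log2(FPKM + 1) scale the rise was 3.04 ± 0.05 (SE) in the Ada3 set (limma, adjusted p = 2e-14), the 3rd highest of 5830 genes tested. In the bromodomain set it was 3.75 ± 0.05 (adjusted p = 2.41e-19), the 7th highest of 5841. The test called 46.6% of all genes in the first comparison and 66.7% in the second, so the size and rank of the rise say more than the call. The median gene itself stood at 0.17 in the second comparison, which leaves 3.58 for SUC2 relative to it. With the length factor undone, SUC2 ranked between 1627 and 1760 among 5971 protein-coding genes in the glucose libraries of the first WT and between 295 and 321 in its sucrose libraries. In the second WT it ranked between 2785 and 3029 in glucose, close to the middle of all genes, and between 367 and 378 in sucrose. The tables were fitted separately, each with its own WT, so the higher glucose level in the first WT was not tested.

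**Figure D1:**
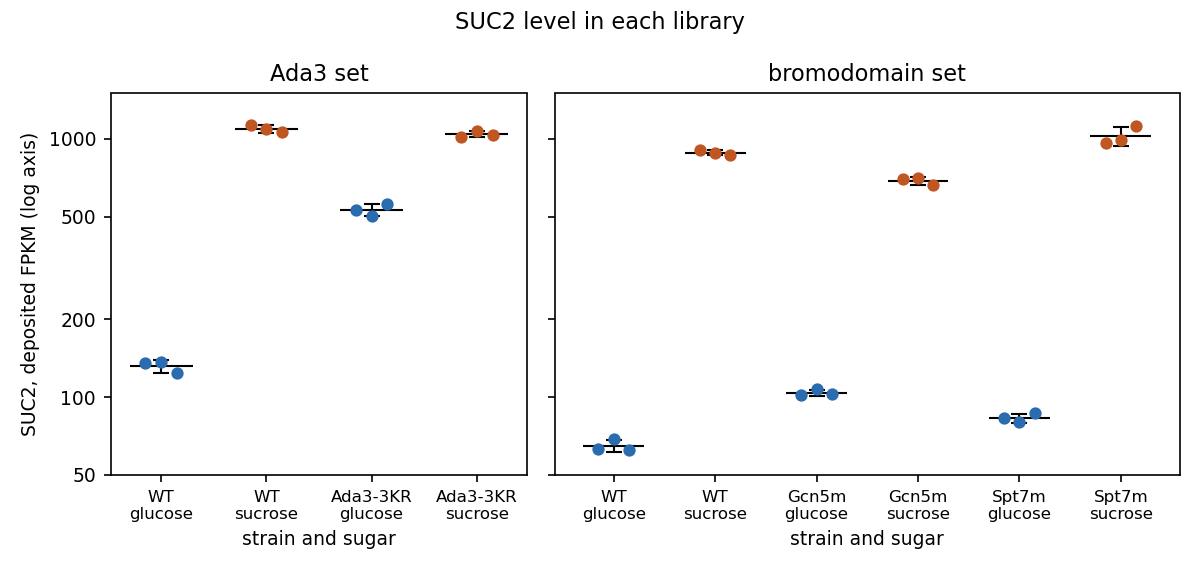
Deposited FPKM of SUC2 (log axis) in each of the 30 libraries by strain and sugar, with glucose in blue and sucrose in orange, and black lines for the group mean ± SD (n = 3). The Ada3-3KR glucose libraries sit at 501 to 559 FPKM, above the WT glucose libraries at 124 to 137, while in sucrose both strains sit between 1019 and 1134.

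In Ada3-3KR, SUC2 was already high in glucose. Its deposited FPKM were 533, 501 and 559 in glucose and 1019, 1074 and 1037 in sucrose. The means were 531 ± 29.1 and 1043 ± 28.2 (SD, n = 3). The glucose level was 48.5% of that of WT in sucrose, where WT in glucose had 12.1%. No glucose library of the mutant came near those of WT, the lowest being 501 against a highest of 137. The difference from WT in glucose was 2.00 ± 0.05 (limma, adjusted p = 1.18e-12), the 6th highest of 5830 genes, in a comparison that called 62.2% of them. With the factor undone, the mutant's glucose libraries placed SUC2 at ranks 594 to 643 of 5971 protein-coding genes. In glucose 53 genes were called higher in Ada3-3KR by at least 1 on the log2 scale. Of these, 47 were called in sucrose, counted in either direction, and 6 were not, SUC2 being 1 of the 6. In sucrose 55.9% of all genes were called.

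Sucrose still raised SUC2 in Ada3-3KR, by 0.97 ± 0.05 (adjusted p = 1.1e-09), in a comparison that called 50.7% of genes. That rise ranked 92nd and amounted to 512 FPKM, against 963 FPKM in WT. In sucrose the strains lay close together, with the mutant at 95.3% of WT. The difference of -0.07, with a 95% interval from -0.17 to 0.03, was not called (adjusted p = 0.224), although 55.9% of all genes were. It lay at -0.12 once the median difference between libraries was removed, and was then called (adjusted p = 0.0334). The lowest WT library (1062) fell inside the range of the mutant (1019 to 1074), so the groups overlapped. The interaction, which is the sucrose effect of the mutant minus that of WT, was -2.07 ± 0.07 (limma, adjusted p = 1.97e-10), the 5th lowest of 5830 genes, with 38.8% of genes called. SUC2 thus differed between the strains in glucose, and its smaller sucrose effect in Ada3-3KR came with the higher starting level.

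The bromodomain mutants differed from WT in SUC2 by less than Ada3-3KR did in glucose, and the 2 mutants differed from each other. In Gcn5m the deposited FPKM were 102, 108 and 103 in glucose and 698, 706 and 663 in sucrose. The means were 104 ± 3.01 and 689 ± 22.9 (SD, n = 3). All glucose libraries of Gcn5m were above the highest WT value of 69.0, and all its sucrose libraries were below the lowest WT value of 868. In glucose Gcn5m exceeded WT by 0.68 ± 0.05 (limma, adjusted p = 6.62e-09), in a comparison that called 62% of genes. In sucrose it was lower than WT by a log2 difference of -0.36 ± 0.05 (adjusted p = 9.89e-06), where 70.6% of genes were called. Only 108 of 5841 genes, 1.85%, were called higher in glucose and lower in sucrose in this mutant. Of the pathway genes followed below, HXK2 (0.40 in glucose and -0.37 in sucrose), HXT1 (0.40 and -0.52) and HXT4 (0.24 and -0.64) shared that pattern with SUC2.

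In Spt7m the deposited FPKM were 82.9, 79.9 and 86.6 in glucose and 965, 993 and 1126 in sucrose. The means were 83.1 ± 3.35 and 1028 ± 86.2 (SD, n = 3), and replicate 3 in sucrose stood above the other two. All Spt7m libraries were above those of WT in the same sugar. SUC2 exceeded WT by 0.36 ± 0.05 in glucose (limma, adjusted p = 2.75e-05; 53.2% of genes called) and by 0.21 ± 0.05 in sucrose (adjusted p = 0.00201; 70.3% called). Without replicate 3 of Spt7m in sucrose the second difference was 0.14, and it was still called. Relative to the median gene, which was -0.10 in glucose and -0.08 in sucrose, these differences were 0.46 and 0.29.

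The mutants also differed from each other in opposite directions in the 2 sugars. In glucose SUC2 was higher in Gcn5m than in Spt7m by 0.32 ± 0.05 (limma, adjusted p = 0.000243; 27.7% of genes called). In sucrose it was lower in Gcn5m, at -0.57 ± 0.05 (adjusted p = 2.63e-07; 19.7% called), the 161st lowest of 5841 genes. Such a reversal, higher in Gcn5m than in Spt7m in glucose and lower in sucrose, was called for 43 of 5841 genes (0.736%). HXT5, for a hexose transporter, was another of them (0.36 in glucose and -1.33 in sucrose).

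The sucrose effect within each strain followed from these levels. It was 2.71 ± 0.05 in Gcn5m (adjusted p = 5.45e-18, 74% of genes called) and 3.61 ± 0.05 in Spt7m (adjusted p = 9.43e-20, 76% called). As ratios of group means these were 6.62 and 12.4, against 13.7 in WT, and as increments they were 585, 945 and 821 FPKM. Relative to the median gene the log2 rises were 2.52 in Gcn5m, 3.42 in Spt7m and 3.58 in WT. The Gcn5m effect was smaller than that of WT by a log2 interaction of -1.04 ± 0.08 (limma, adjusted p = 5.56e-09, 41.6% of genes called). It was also smaller than that of Spt7m, at -0.90 ± 0.08 (adjusted p = 3.88e-07, 13.8% called), the 28th lowest of 5841 genes. The Spt7m effect differed from that of WT by -0.14, with a 95% interval from -0.30 to 0.02 (adjusted p = 0.132, 47.5% called). Without replicate 3 of Spt7m in sucrose that interaction was -0.21 and was called (adjusted p = 0.0151), so it rests on that library.

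**Figure D2:**
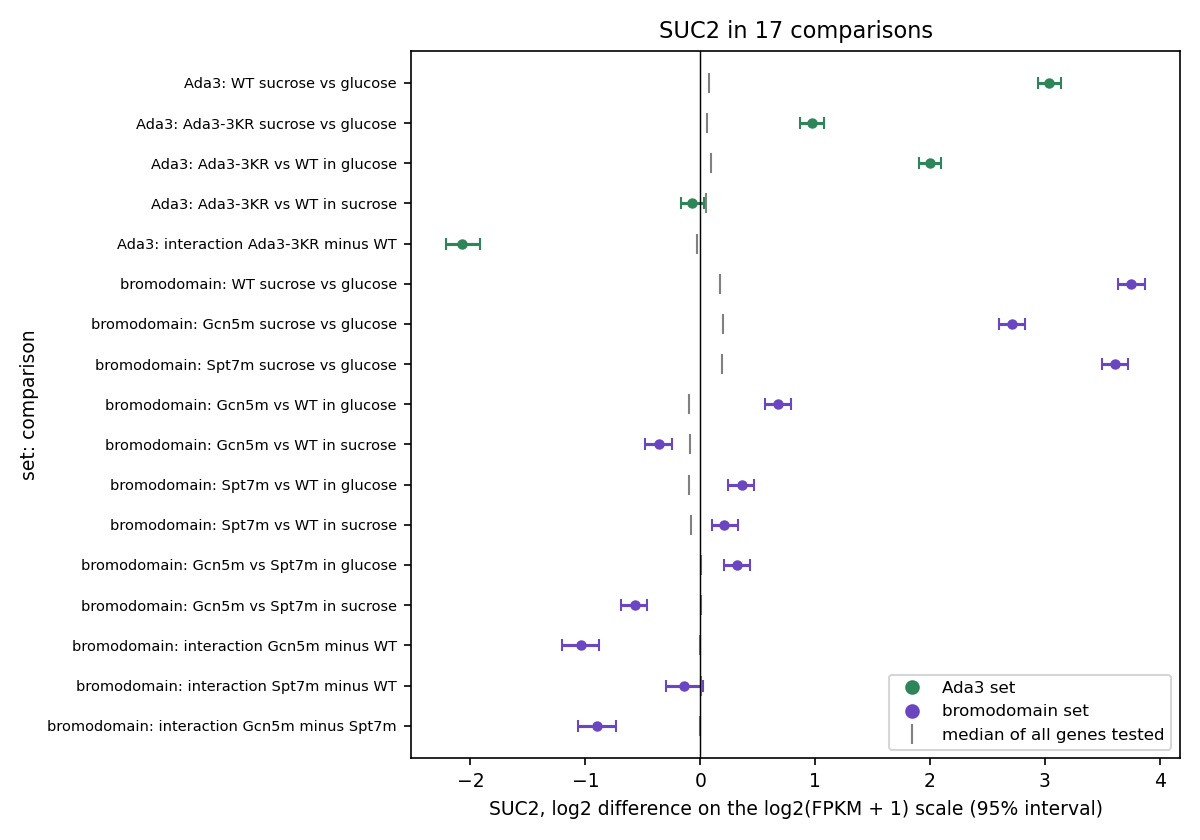
Log2 difference of SUC2 on the log2(FPKM + 1) scale with its 95% interval in the 17 comparisons, in green for the Ada3 set and in purple for the bromodomain set, and a grey tick for the median of all genes tested. The intervals reach 0 for Ada3-3KR against WT in sucrose (-0.07) and for the Spt7m interaction (-0.14), and the sucrose effect is 3.04 in WT against 0.97 in Ada3-3KR.

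Ordered by level, the Ada3 set ran from WT in glucose (132) through Ada3-3KR in glucose (531) to Ada3-3KR in sucrose (1043) and WT in sucrose (1095), and the last neighbours in that order were not called different. The bromodomain set ran from WT in glucose (64.8), Spt7m in glucose (83.1) and Gcn5m in glucose (104) to Gcn5m in sucrose (689), WT in sucrose (886) and Spt7m in sucrose (1028). Each neighbour in that order was called different from the next. As a share of WT in sucrose of the same set, the glucose level was 7.32% in WT, 9.39% in Spt7m and 11.7% in Gcn5m, against the 48.5% of Ada3-3KR. In glucose both bromodomain mutants lay between WT of the bromodomain set (64.8) and WT of the Ada3 set (132). The sets were not tested against each other.

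In sucrose against glucose, the genes known to act on SUC2 changed less in WT than SUC2 itself. A list of 22 Snf1 and Mig regulators was read for this. In WT of the Ada3 set 10 were called higher in sucrose and 2 lower (all genes: 32.7% and 13.9%), with a list median of 0.13 against 0.08 for all genes. Under quantile normalization the calls were 5 higher and 5 lower. In Ada3-3KR 4 were called higher in sucrose and 8 lower (all genes: 32.9% and 17.7%), and 1 and 12 under quantile normalization. SNF1, the kinase gene, had 39.2 to 40.9 FPKM in that WT in glucose and 42.7 to 45.1 in sucrose. In Ada3-3KR in glucose it had 47.3 to 49.2, above WT in glucose by 0.26, and none of these ranges overlapped. These are RNA levels, and the activity of the kinase was not measured.

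MIG1 encodes the repressor itself. In the Ada3 set its FPKM were 56.2, 64.6 and 61.6 in WT in glucose, 78.0, 75.7 and 78.8 in WT in sucrose, 42.2, 48.2 and 42.7 in Ada3-3KR in glucose and 32.3, 35.1 and 34.1 in Ada3-3KR in sucrose. Neither strain's sugars overlapped, and the strains moved in opposite directions. MIG1 rose by 0.35 in WT and fell by 0.38 in Ada3-3KR, with an interaction of -0.73. The mutant was below WT by -0.45 in glucose and by -1.17 in sucrose. In the bromodomain set it rose by 0.71 in WT, 1.20 in Gcn5m and 1.16 in Spt7m. In glucose, where SUC2 differed between these strains, the FPKM of MIG1 overlapped, at 52.8 to 54.4 in WT, 48.8 to 54.3 in Gcn5m and 49.9 to 55.2 in Spt7m.

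MIG2, for a related repressor, was also lower in Ada3-3KR than in WT, by -0.43 in glucose and -0.46 in sucrose. The repressor genes NRG1 (-0.75) and NRG2 (-1.18) were lower in Ada3-3KR in glucose too, as was MIG3 (-0.58). The fall was not limited to repressor genes. TOS3, a kinase gene on the same list, had 20.0 to 22.1 FPKM in WT in glucose. In Ada3-3KR in glucose it had 8.88 to 11.4, without overlap (deposited values). In all, 6 of the 22 regulators were called higher and 9 lower in that comparison (all genes: 40.2% and 22.1%). With the median difference between libraries removed these were 3 and 10, and on the TPM scale 7 and 6. In Gcn5m against WT in glucose 7 of the regulators were called higher and 7 lower (all genes: 20.8% and 41.2%), and 10 and 5 under quantile normalization. The number higher fell to 4 without replicate 2 of WT or of Gcn5m in glucose. In Spt7m against WT in glucose 2 were called higher and 6 lower (all genes: 15.7% and 37.5%), but 5 and 3 with the median difference removed. MTH1, whose product works with the repressor of hexose transporters, rose by 0.67 in WT and fell by 0.74 in Ada3-3KR.

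HXK2, the hexokinase gene whose product is also known for its part in glucose repression, had FPKM of 648 to 666 in WT in glucose and 829 to 879 in Ada3-3KR in glucose, a difference of 0.36. In the bromodomain set its sucrose effect was 1.00 in WT, 0.24 in Gcn5m (-0.02 with median rescaling, no longer called) and 0.44 in Spt7m. The interaction for Gcn5m was -0.76, and for Spt7m, where that of SUC2 was not called, -0.57.

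The remodeller and corepressor list (14 genes of SWI/SNF and Tup1-Cyc8) and the 19 SAGA subunits had medians near those of all genes in glucose. Single members differed more. SNF12 had 21.9 to 22.3 FPKM in Ada3-3KR in glucose against 15.3 to 17.8 in WT. SNF2 had 13.9 to 15.4 in Gcn5m in glucose against 19.3 to 21 in WT of that set. In Ada3-3KR against WT in glucose, 7 of the 14 were called higher and 2 lower (all genes: 40.2% and 22.1%), with a median of 0.14 against 0.09 for all genes. The calls were 5 and 3 with the median difference removed and 10 and 1 on the TPM scale. The number lower was 1 without replicate 2 or 3 of WT in glucose or replicate 3 of Ada3-3KR in glucose, and 0 without replicate 2 of the latter. Of the 19 SAGA subunits 7 were called higher, a share near the 40.2% of all genes, and 1 lower, below the 22.1% of all genes. Their median was also 0.14, and on the TPM scale 11 were higher. In Gcn5m against WT in glucose 1 of the 14 remodeller and corepressor genes was called higher and 6 lower (all genes: 20.8% and 41.2%). Their median was -0.16 against -0.10 for all genes, and the share called lower was near that of all genes. With the median difference removed these were 2 and 4, and leaving out any of 4 single libraries (replicate 1 of WT in glucose, replicates 2 and 3 of WT in sucrose, replicate 2 of Gcn5m in sucrose) also gave 2 higher. In the same comparison 9 of the 19 SAGA subunits were called lower and none higher (all genes: 41.2% and 20.8%), with a median of -0.19 against -0.10 for all genes. Under quantile normalization 8 were lower and 1 higher. NGG1, which encodes Ada3, exceeded WT in Ada3-3KR in glucose by 0.39. GCN5 was lower than in WT in glucose by -0.56 in Gcn5m and by -0.40 in Spt7m, and SPT7 had -0.12 in Spt7m (adjusted p = 0.186). The mutations are of the proteins, so these RNA levels do not check the genotypes.

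SUC2 was next set beside 17 other genes known for glucose repression of the Mig1 type. All 17 were called higher in sucrose in WT of the Ada3 set (16 under quantile normalization), with a median of 0.89 against the 3.04 of SUC2. In that comparison 1906 genes in all were called higher and 809 lower (1100 and 1503 under quantile normalization). In WT of the bromodomain set all 17 were again called higher (15 under quantile normalization), with a median of 1.21 against 3.75. There 2975 genes in all (50.9%) were called higher and 919 (15.7%) lower (1517 and 1848 under quantile normalization). Of the 17, the nearest to SUC2 in the first WT was JEN1, for a lactate transporter, at 2.96. In the second, JEN1 at 4.96 exceeded SUC2. REG2, for a subunit of the phosphatase that opposes Snf1, rose by 2.00 and 2.59, and HXK1, for a hexokinase made when glucose is scarce, by 1.38 and 1.69.

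In Ada3-3KR these genes, like SUC2, mostly had a smaller sucrose effect than in WT, but in glucose the share of them called higher was near that of all genes. In glucose 7 of the 17 were called higher than in WT and 2 lower (all genes: 40.2% and 22.1%), with a median of 0.11 against 0.09 for all genes. The calls were 7 and 4 with the median difference removed and 8 and 1 on the TPM scale, and the number lower was 1 without replicate 2 of WT or replicate 1 of Ada3-3KR in glucose. Those highest besides SUC2 were HXT4, for a hexose transporter, at 1.42, HXK1 at 1.02 and EMI2, for a hexokinase-like protein, at 0.86. HXK1 had 1056, 1088 and 1068 FPKM in WT in glucose and 2172, 2138 and 2189 in Ada3-3KR in glucose, with no overlap. JEN1, which rose nearly as much as SUC2 in WT, had 22.0 to 22.9 FPKM in Ada3-3KR in glucose, inside the range of 20.4 to 23.3 in WT. In sucrose 3 of the 17 were called higher in Ada3-3KR and 12 lower (all genes: 33.8% and 22.2%), with a median of -0.49, where SUC2 had -0.07. JEN1 was at -1.77 and HAP4, for a subunit of a respiratory activator, at -1.61. The interaction was called lower for 13 of the 17 and higher for none (all genes: 21.6% and 17.2%), with a median of -0.85 against the -2.07 of SUC2. For JEN1 (-1.81) it came with a lower level in sucrose, and for HXK1 (-0.85), as for SUC2, with a higher level in glucose.

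In Gcn5m 10 of the 17 were called higher than in WT in glucose and 3 lower (all genes: 20.8% and 41.2%), with a median of 0.25. In sucrose 10 were called higher and 4 lower (all genes: 28% and 42.6%), with a median of 0.52, where SUC2 was lower by -0.36. HXK1 was higher in both sugars, at 0.96 and 1.08. FBP1, for the gluconeogenic fructose-1,6-bisphosphatase, was lower in sucrose by -1.45. Its FPKM in sucrose were 37.4, 35.7 and 34.0 in WT, 12.4, 12.6 and 12.2 in Gcn5m and 46.8, 43.3 and 58.8 in Spt7m, with no overlap between the strains. SUC2 and FBP1 were therefore both lowest in Gcn5m and highest in Spt7m in sucrose. The interaction of Gcn5m against Spt7m was called lower for 6 of the 17 and higher for none (all genes: 7.48% and 6.33%). FBP1 had -1.93, REG2 -0.55, CAT8 -0.53 and EMI2 -0.42, against the -0.90 of SUC2.

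**Figure D3:**
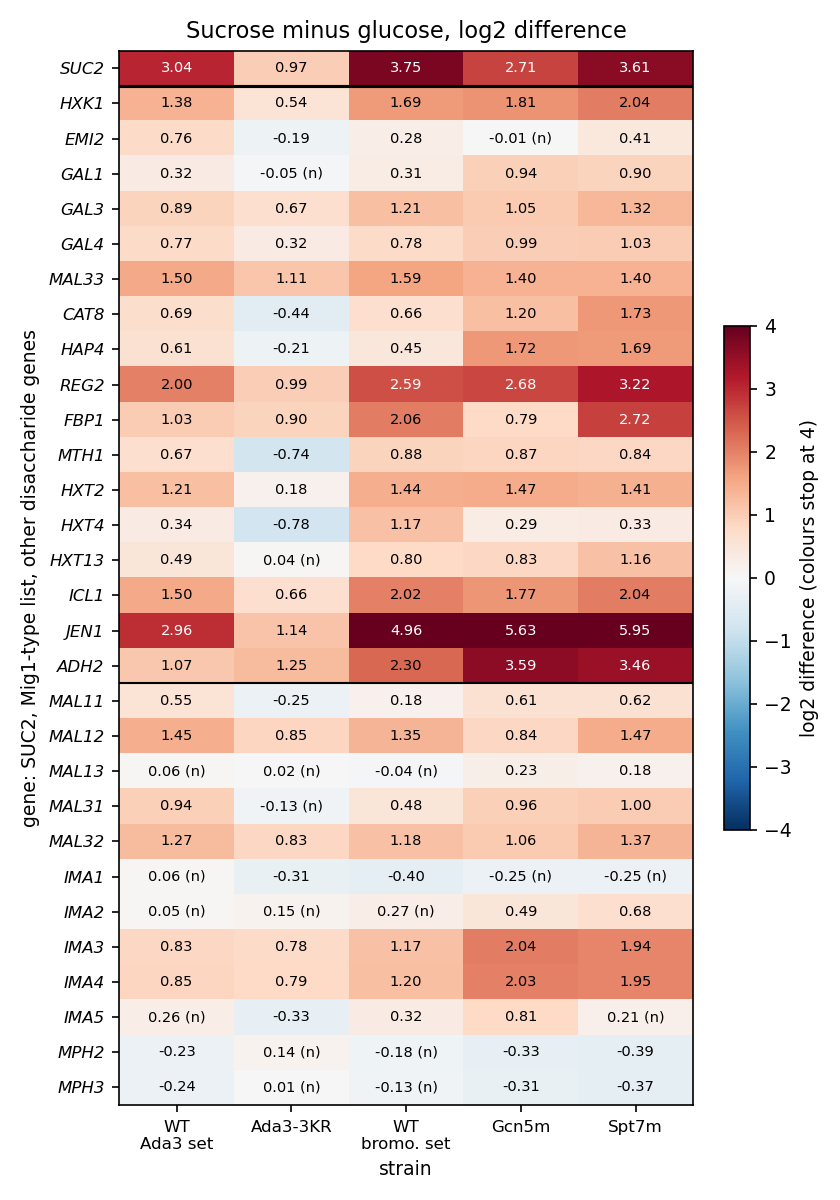
Log2 difference between sucrose and glucose on the log2(FPKM + 1) scale for SUC2 (top row), 17 genes repressed by glucose in the Mig1 manner and the other disaccharide genes, in the 5 strains, where (n) marks a difference that was not called. SUC2 goes from 3.04 to 0.97 between WT and Ada3-3KR and from 3.75 to 2.71 between WT and Gcn5m.

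The other disaccharide genes, which serve maltose and isomaltose, responded less. Of 13, 7 were called higher in sucrose and 2 lower in WT of the Ada3 set (all genes: 32.7% and 13.9%), with a median of 0.55. The number lower was 0 without replicate 2 or 3 of WT in glucose and 1 without replicate 1 of WT in sucrose. In WT of the bromodomain set 8 were called higher and 1 lower (all genes: 50.9% and 15.7%), with a median of 0.32. These were 6 and 4 under quantile normalization, and 3 were lower without replicate 2 of WT in glucose. MAL32, for a maltase, had 4.84, 4.35 and 4.23 FPKM in WT in glucose and 12.2, 11.3 and 13.2 in sucrose in the Ada3 set, a rise of 1.27. It is nearly identical to MAL12 (1.45), so their values are uncertain as those of single genes. MAL33, for a maltose activator, rose by 1.50. In glucose 5 of the 13 were called higher in Ada3-3KR than in WT and 4 lower (all genes: 40.2% and 22.1%), with 2 higher under a filter of 5 FPKM, MAL32 having 0.62. In Gcn5m and Spt7m the rise of MAL32 in sucrose was 1.06 and 1.37, and its interaction with Gcn5m was -0.12 (adjusted p = 0.488).

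Hexose released by invertase enters through transporters, and 20 of 21 genes for hexose transport and phosphorylation passed the filter on low values. Of these, 13 were called higher in sucrose and 2 lower in WT of the Ada3 set (all genes: 32.7% and 13.9%), with a median of 0.46. HXT7, for a high-affinity transporter that is nearly identical to HXT6, rose by 1.13 in WT and by 0.25 in Ada3-3KR. In Ada3-3KR against WT it was at 0.25 in glucose and -0.62 in sucrose, so its smaller rise came with a lower level in sucrose, unlike that of SUC2. In sucrose HXT7 was higher than in WT by 1.27 in Gcn5m and 1.05 in Spt7m, where SUC2 had -0.36 and 0.21.

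To find the genes whose pattern was most like that of SUC2, the 10 group means, centred within each set, were correlated over the 1417 genes whose mean reached 5 FPKM and whose range reached 1 on the log2 scale. The groups of a set share a table and a WT, so the values describe these libraries and carry no test. The 8 most alike had Pearson's r of 0.966 to 0.984. They were DOG2, for a sugar phosphate phosphatase (r = 0.984), RSM7 (0.98), MRPL15 (0.976) and MRPL16 (0.966), for proteins of the mitochondrial ribosome, ODC1, for a mitochondrial carrier (0.979), YHR033W (0.978), GDH2, for the NAD-dependent glutamate dehydrogenase (0.969), and LSC2, for a subunit of succinyl-CoA ligase (0.967). DOG2 has a near-identical copy, so its own values are uncertain. None of the 8 is on the lists above. Their amplitude was smaller. By Spearman's rank correlation LSC2 ranked 48th and RSM7 29th, against 2nd for both YHR033W and MRPL15, so the choice of these genes depends on the measure. Over all 30 libraries ODC1, YHR033W and DOG2 each had r = 0.977.

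ODC1 had 37.5, 36.6 and 39.8 FPKM in WT in glucose, 83.3, 81.6 and 84.1 in Ada3-3KR in glucose, 91.9, 85.7 and 90.8 in WT in sucrose and 114, 115 and 112 in Ada3-3KR in sucrose. None of these groups overlapped. Its difference between Ada3-3KR and WT in glucose was 1.11, and its interaction was -0.76. YHR033W was the gene among the 8 that was, like SUC2, called higher in Gcn5m than in WT in glucose (0.34) and lower in sucrose (-0.30). Its difference between Gcn5m and Spt7m in sucrose was -0.84. The 4 most opposite were COM2 (r = -0.968), CMK2 (-0.962), CIP1 (-0.958) and YOL014W (-0.956). CMK2 encodes a calmodulin-dependent kinase. In WT of the Ada3 set COM2 had a sucrose effect of -0.84, CMK2 of -0.66, CIP1 of -1.58 and YOL014W of -1.53. Within 1000 bases before the start codon, RSM7 and MRPL15 held 3 Mig1-type hexamers, YHR033W 2, DOG2, ODC1, GDH2 and LSC2 1 and MRPL16 none, against 4 for SUC2. Of the 4 most opposite genes, CMK2 held 2, COM2 and YOL014W 1 and CIP1 none, and 41.8% of 5996 genes held at least 1.

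**Figure D4:**
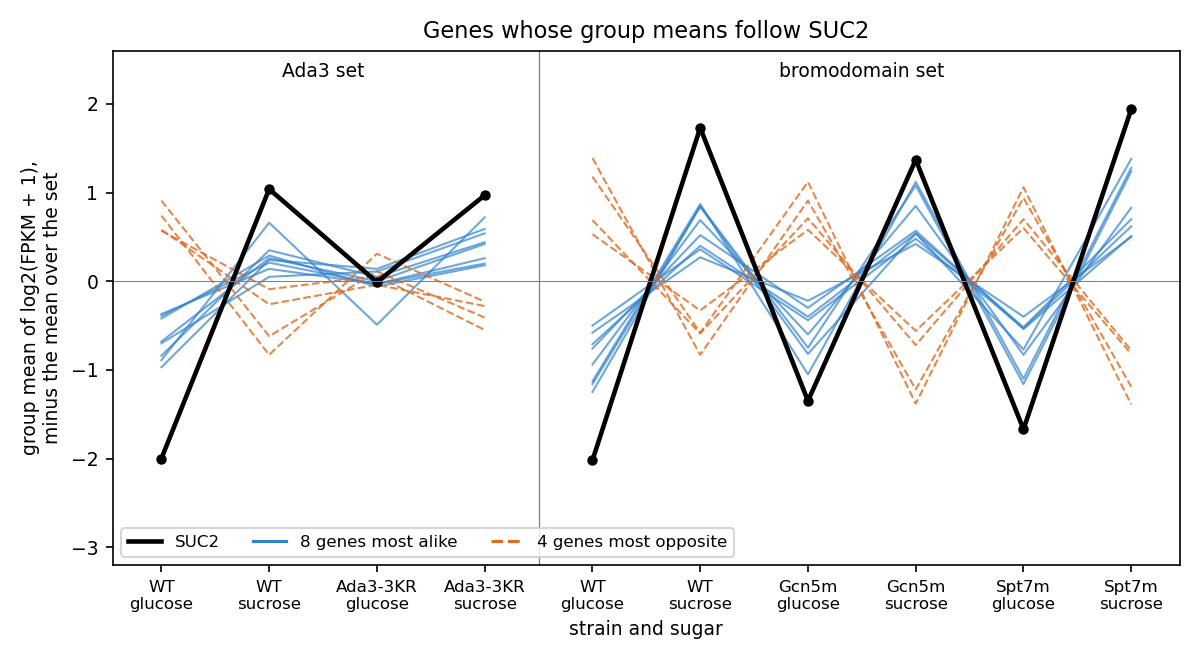
Group means of log2(FPKM + 1), less the mean over the set, for SUC2 (black), the 8 genes most alike (blue) and the 4 most opposite (orange, dashed) over the 10 groups. SUC2 has the widest range of those drawn, and Pearson's r with it runs from 0.966 to 0.984 for the 8 and from -0.968 to -0.956 for the 4.

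The immediate neighbours of SUC2 responded far less. The nearest gene upstream, YIL163C, is separated from SUC2 by 132 bases and runs on the opposite strand. With the factor undone it had group means of 4.88 to 9.83 FPKM, against 35.3 to 596 for SUC2. In WT of the Ada3 set its deposited FPKM were 3.81, 5.27 and 4.46 in glucose and 4.07, 3.76 and 4.07 in sucrose, which overlap. Its largest sucrose effect in any strain was -0.42, in Gcn5m. In Ada3-3KR in glucose, where SUC2 was higher, YIL163C was lower than in WT by -0.46. The nearest gene downstream, YIL161W, starts 449 bases after SUC2. Its deposited FPKM were 44.8, 51.7 and 41.3 in WT in glucose, 43.7, 56.3 and 48.2 in WT in sucrose and 41.2, 40.8 and 42.1 in Ada3-3KR in glucose, and the WT sugars overlap. Its largest sucrose effect was 0.53, in Gcn5m.

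POT1, for the thiolase of peroxisomal fatty acid oxidation, lies 1207 bases downstream on the other strand and was the neighbour that moved most. Its FPKM were 9.61, 10.1 and 10.1 in WT in glucose, 17.8, 21.4 and 21.8 in WT in sucrose, 21.5, 23.5 and 22.6 in Ada3-3KR in glucose and 19.5, 21.9 and 19.2 in Ada3-3KR in sucrose. Like SUC2 it exceeded WT in Ada3-3KR in glucose, by 1.10, and had an interaction of -1.11. In the bromodomain set it departed from SUC2. Its FPKM in sucrose were 32.4, 33.5 and 35.1 in WT, 214, 194 and 190 in Gcn5m and 207, 203 and 225 in Spt7m. The sucrose effect was 1.64 in WT, 3.74 in Gcn5m and 3.99 in Spt7m, so its interactions were 2.10 and 2.36. For SUC2 these were -1.04 in Gcn5m, opposite in sign, and -0.14 in Spt7m, which was not called.

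The remaining neighbours, YIL166C, YIL165C and NIT1 upstream and BNR1 and AIM20 downstream, had sucrose effects between -0.06 and 0.75 over the 5 strains. AIM20 exceeded WT in Ada3-3KR by 1.20 in glucose and by 1.38 in sucrose, so, unlike SUC2, it was called in both sugars.

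**Figure D5:**
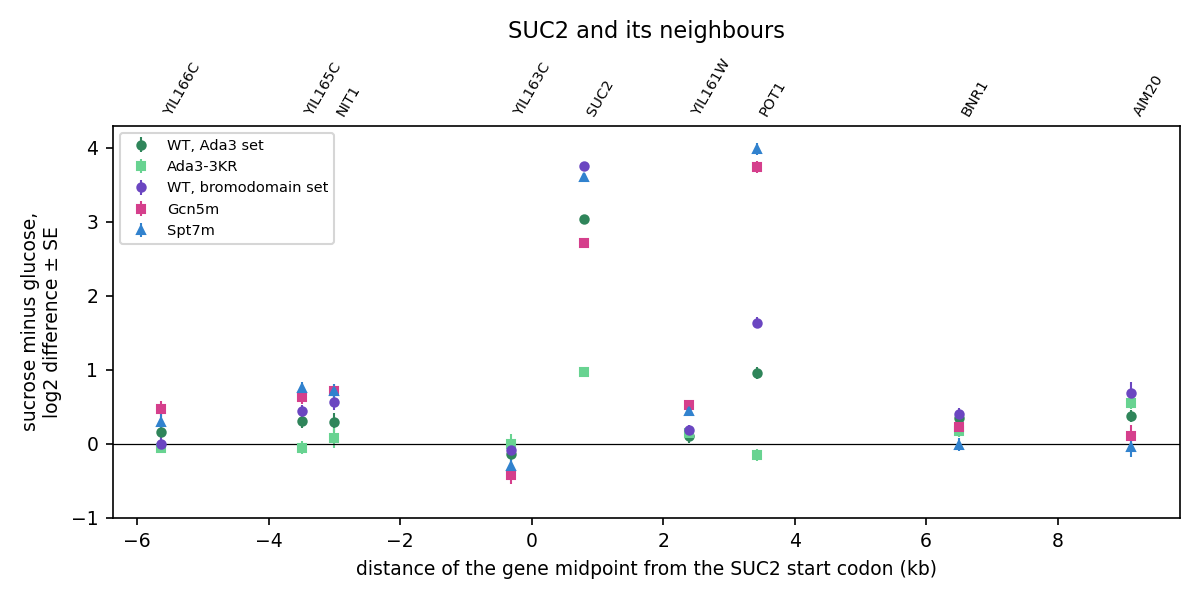
Log2 difference between sucrose and glucose (± SE) in the 5 strains for SUC2 and the 4 genes on each side, against the distance of each gene's midpoint from the SUC2 start codon in kb. SUC2 lies at 0.97 to 3.75 and POT1 at -0.15 to 3.99, while the other neighbours lie between -0.42 (YIL163C) and 0.75 (YIL165C).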

How the data were processed

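Gene FPKM from 30 RNA-seq libraries were deposited by the authors in 2 tables, scaled by gene length and library depth. Depth and counting error are unknown, as no counts were analysed. HISAT2 2.1.0, cutadapt 1.16, StringTie 1.3.3b and build R64 are listed, with no roles, in the submitters' processing notes. Per the labels' protocols, libraries came from 1 µg of total RNA. In the second of them, 2 gene names had become dates and were restored.

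From row 4148 of 6101 on, deposited FPKM carry a constant factor per gene. It shows in the decimals, since earlier rows have at most 6 (5 rows excepted) and later ones become whole millionths once divided by a fraction. A fraction was recovered for 1930 of 1954 rows, its numerator divided the reference length in 96.4% of those with one, and 97.7% had the same fraction in the second table. Its origin is not given in the sources used here. Tests use the values as deposited.

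Values were taken as log2(FPKM + 1), which understates changes of low genes, for genes whose mean over the set reached 1 FPKM (5830 and 5841). In each set, limma 3.58.1 (R 4.3.3) was fitted with 1 mean per group, a variance trend and a spread shared by all groups, and tested on simulated data. Genes were called below 0.05 after Benjamini-Hochberg adjustment over all genes tested. Copies were sought with BLAST 2.17.0 (90% identity, 50% coverage). Python 3.11.15, pandas 2.3.3 and matplotlib 3.10.9 were also used.

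SUC2, the gene lists and the tests were chosen with earlier results of these data known. The genes named were SUC2, the 8 most and 4 least like it, 4 neighbours on each side, NGG1, GCN5 and SPT7, SNF1, MIG1, MIG2, HXK1, HXK2, HXT7 and MAL32, and up to 4 called members of each list per comparison, of which those with smaller changes were left out; list members that share a pattern with SUC2, and JEN1 in glucose, were picked after their values were seen. Which list counts are given was also chosen then, and small differences of SNF1, MIG1, JEN1, YIL163C and YIL161W, nearly all uncalled and some of unstable sign, are given as levels. The auxotrophy and mating type lists served as checks of the strain. The alternatives were pseudocounts of 0.1 and 5, no filter or one of 5 FPKM, quantile normalization, median rescaling, TPM, a replicate block, only the compared groups, no variance trend and leaving out each library. Undoing the length factor and removing the median difference between libraries were added after seeing the data.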

Additional observations from a re-analysis of the deposited data

Results flagged for a closer look

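The following results stood out because the same change of sugar had different effects in different strains, each by a test of the difference itself. The sucrose effect on SUC2 was smaller in Ada3-3KR than in WT by a log2 interaction of -2.07 (limma, adjusted p = 1.97e-10), with the glucose level higher in all 3 mutant libraries. In Gcn5m it was smaller than in WT by -1.04 (limma, adjusted p = 5.56e-09), with a higher level in glucose and a lower one in sucrose, each without overlap. It was also smaller in Gcn5m than in Spt7m, by -0.90 (limma, adjusted p = 3.88e-07). The glucose level of Gcn5m, at 104 FPKM, lay between those of WT in the bromodomain set (64.8) and in the Ada3 set (132). The mutants of the bromodomain set also differed from WT in URA3. Its part in these results was not tested and cannot be told apart from that of the mutations.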

How the results depend on the processing

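Of 480 values of SUC2 under the alternatives, 478 kept their direction and their side of the threshold, and 15 of the 17 comparisons had no change at all. Removing the median difference between libraries, chosen after seeing the data, gave -0.12 (adjusted p = 0.0334) for Ada3-3KR against WT in sucrose, against -0.07 as reported. The alternatives to that value ran from -0.12 to -0.01, and with 1 library left out from -0.09 to -0.04. The Spt7m interaction ran from -0.21 to -0.10 with 1 library left out, and only leaving out replicate 3 of Spt7m in sucrose brought it past the threshold. That library also moved the genes called between Gcn5m and Spt7m in sucrose from 1151 to 748. The cause of these changes was not tested. Undoing the length factor changed no call of SUC2. Of 2374 values of other genes named, 1 reversed, the sucrose effect of HXK2 in Gcn5m at -0.02 with median rescaling, and the same effect lost its call with the median difference removed (0.06, adjusted p = 0.287). Of 1116 counts of called list members, 46 moved by over 1.5 times. Another scaling moved the share of higher calls over all genes by more than 10 percentage points in 14 of the 17 comparisons. Same-numbered libraries of different groups had correlations of their deviations from -0.25 to 0.408 in the Ada3 set (median 0.135, 11 of 18 over 0.1, against a median of -0.111 and 10 of 36 for different numbers). In the bromodomain set they ran from -0.428 to 0.336 (median -0.0319). Since not every pair was over 0.1, the numbers were not taken to pair the samples. With the replicate block no call of SUC2 changed, and the rise in WT was 3.04 in the Ada3 set and 3.75 in the bromodomain set. Depth is unknown.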
